A study of Mus musculus with 27 samples.

Results

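The early answer to TGF-β in cells with reduced lamin B1 was measured in 4 RNA-seq libraries, 2 from untreated lamin B1 knockdown (KD) cells and 2 from KD cells given TGF-β for 8 h. Their labels define them, out of 27 samples in all and 12 libraries of control or KD cells. NMuMG is an established line of normal mouse mammary epithelial cells, grown with serum and insulin. The study mapped lamin B1 on open chromatin, chromatin accessibility, genome folding and RNA while TGF-β drove these cells through an epithelial-to-mesenchymal transition (EMT), and used the KD to ask what lamin B1 contributes. KD cells (shLB in the labels) carried a short hairpin RNA (shRNA) against lamin B1, and control cells (shCT) an irrelevant shRNA, both delivered by lentivirus according to the study's text. Each of the 6 groups (control or KD cells, untreated, at 8 h or at 24 h of TGF-β) has 2 libraries of total RNA, described as biological replicates. The labels give the TGF-β concentration only as 1 to 5 ng/ml, and the study kept the knockdown partial.

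TGF-β binds a pair of receptor kinases that phosphorylate Smad proteins, which enter the nucleus and switch genes on or off together with other factors. In epithelial cells the ligand is known for 2 programmes, a cytostatic one that lowers Id factors, Myc and the genes of S phase, and EMT, in which Snail and Zeb repressors rise, junctions are taken apart, and matrix, integrin and actin genes rise. Lamin B1 is a B-type lamin, a filament protein that lines the inner nuclear membrane and, in a smaller amount, lies in the nuclear interior.

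Values are FPKM (fragments normalised to transcript length and library size), and changes are differences of log2(FPKM + 1) with their standard error (SE), which understate the change of genes with low values. A gene is called, and said to rise or fall, where the Benjamini-Hochberg adjusted p of limma over 11450 genes tested is under 0.05, and every p below is that adjusted p. The targeted gene, Lmnb1, was low in every library labelled KD. Its FPKM was 9.01 and 9.27 in untreated KD cells and 7.79 and 8.14 at 8 h, against 29.2 and 36.5 in untreated control cells and 32.8 and 32.1 at 8 h. The KD and control libraries do not overlap, and the KD level was 27.8% of the control level before treatment and 24.5% at 8 h. The change of Lmnb1 with TGF-β in KD cells, −0.18 ± 0.181, did not pass the test (adjusted p = 0.406).

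The KD libraries express epithelial markers, and defining markers of other cell types lie near 0. All 6 luminal epithelial markers passed the filter on low values, and their summed FPKM was 6048 to 6075 in the untreated KD libraries and 5858 to 6120.1 at 8 h. Abundant keratins carry this sum, Krt8 with 2569 and 2614 FPKM in the untreated libraries. Epcam, an epithelial adhesion gene, was at only 0.387 and 0.326 before and 3.15 and 2.81 at 8 h. It passed the filter only through libraries other than the untreated KD ones, as did the fibroblast marker named below. Of 7 immune markers 1 passed the filter (Cd68), and 0 of 6 endothelial and 0 of 5 adipocyte markers did. The summed FPKM of these lists in the KD libraries was at most 1.71 for immune, 0.353 for endothelial and 0.114 for adipocyte markers. The fibroblast list had 1 of 6 markers above it, the collagen gene Col1a1, at 0.336 and 0.284 FPKM before and 3.12 and 2.97 at 8 h. Genes named as small RNAs held 7.27 to 9.76% of the summed FPKM of the untreated KD libraries and 15.6 to 31.7% at 8 h, and 12.03 to 15.1% and 32.3 to 35.6% in control cells. Fitted without them, 7800 genes were called in KD cells in place of 7761, on the FPKM scale as deposited.

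TGF-β changed most of the measured transcriptome of KD cells within 8 h. Of 11450 genes tested, 2629 (23% of all) rose and 5132 (44.8%) fell, 67.8% in either direction. The median gene changed by −0.13. Rises made up 33.9% of the calls as deposited, 46.0% after quantile normalization and 49.2% after median-ratio rescaling. Large changes were more even, with 548 genes higher and 672 lower by at least 2-fold, and 33 higher and 18 lower by at least 8-fold. Both KD libraries at 8 h lay outside both untreated ones for 89.4% of the genes. The median gap between the 2 libraries of a group was 0.0422 for untreated and 0.0497 for treated KD cells, and the median SE of a change was 0.0708.

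All of the 12 largest rises passed 8-fold. Prg4, which encodes the lubricating proteoglycan lubricin, went from 0.245 and 0.339 FPKM to 56.9 and 55.7, a change of 5.47 ± 0.0716 (adjusted p = 9.19e-10). Ass1, an enzyme of arginine synthesis, went from 1.75 and 1.32 to 91.8 and 98.02. In both genes the untreated libraries lie far below the treated ones, and lack of overlap was a condition for all 12 genes. Il11, a cytokine of the interleukin-6 family, rose from 0.169 and 0.427 to 29.05 and 29.3. Has2, which makes the matrix polymer hyaluronan, rose from 0.0228 and 0.0513 to 17.6 and 18.1. Tnfaip6, a hyaluronan-binding protein, rose from 0.0792 and 0.0912 to 16.9 and 17.1. The last 3 genes were under 1 FPKM in both untreated libraries. Thbs1, thrombospondin 1, which can activate latent TGF-β, rose from 10.6 and 11.3 to 178 and 171. Ctsw, Bpifc, Lce1f and Adgra1 were also among the 12 largest rises, with changes of 3.76 to 4.53.

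**Figure D1:**
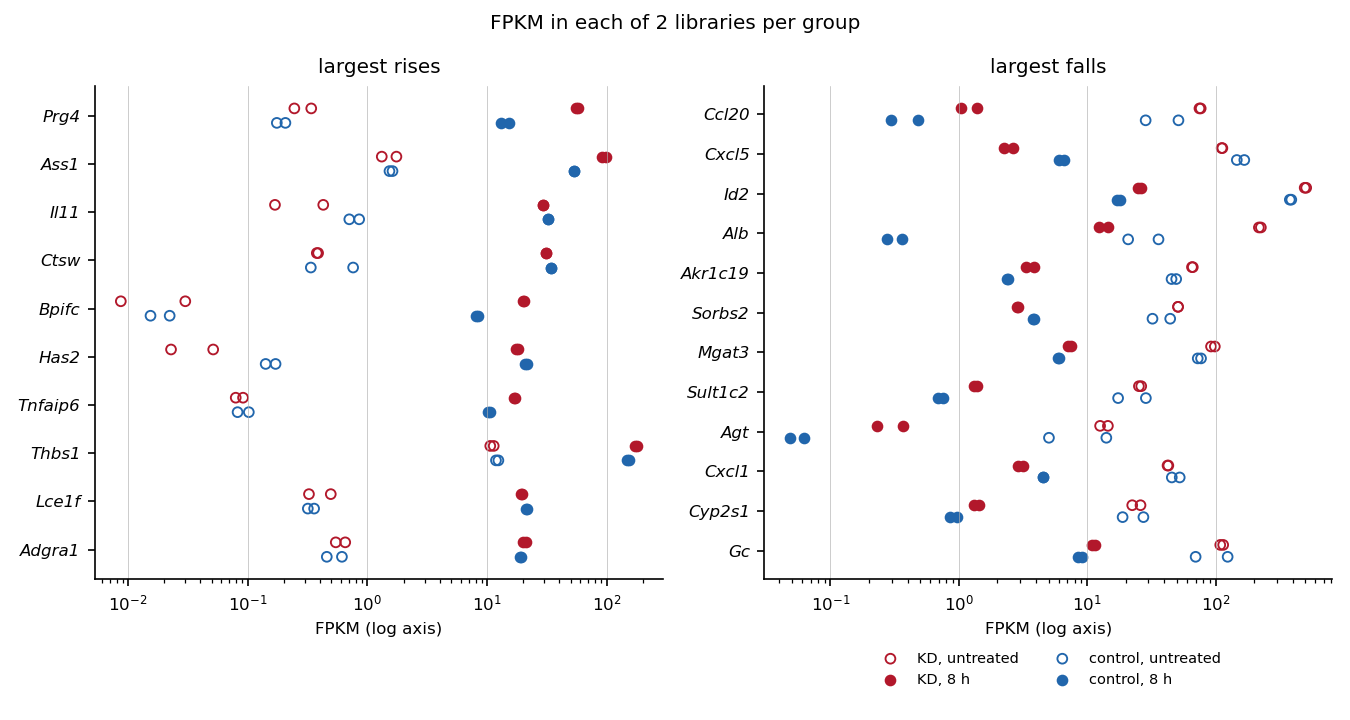
FPKM (log axis) of 10 of the 12 largest rises (left) and of the 12 largest falls (right) of KD cells after 8 h of TGF-β, with a point for each of 2 libraries per group, open for untreated and filled for 8 h, red for KD and blue for control cells. Genes were chosen so that both filled red points lie on the same side of both open red points. Prg4 at 8 h is higher in KD cells (56.9 and 55.7) than in control cells (15.3 and 13.1).

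Promoter sequences of Tnfaip6 and Bpifc are printed because both genes are among the 12 largest rises and hold the letters of the AP-1 element, the site of Fos and Jun proteins. Each run is the 250 bases before the start of the gene in the RefSeq annotation of GRCm38.p6, read 5′ to 3′ on the gene's strand, with the AP-1 letters (TGACTCA, or TGAGTCA on the opposite strand) in capitals. The window of Tnfaip6 is chr2:52037863-52038112 (plus strand), and the capitals begin 142 bases before the start. The window of Bpifc is chr10:86011861-86012110 (minus strand), and its capitals begin 51 bases before the start.
Tnfaip6: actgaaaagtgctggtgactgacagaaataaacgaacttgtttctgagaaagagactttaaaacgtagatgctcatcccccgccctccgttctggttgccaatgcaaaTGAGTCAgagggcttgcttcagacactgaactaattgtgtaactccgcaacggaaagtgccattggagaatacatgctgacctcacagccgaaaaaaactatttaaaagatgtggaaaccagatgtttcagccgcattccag
Bpifc: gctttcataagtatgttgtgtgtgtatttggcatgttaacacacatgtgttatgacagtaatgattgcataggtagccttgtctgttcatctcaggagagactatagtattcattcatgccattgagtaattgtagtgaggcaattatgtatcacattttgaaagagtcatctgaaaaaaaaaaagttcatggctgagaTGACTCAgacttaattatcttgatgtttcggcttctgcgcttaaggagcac
A promoter window was at hand for 5 of the 12 genes, and 3 of these 5 (also Il11) hold the AP-1 letters on either strand. Of all 32851 windows of the genome, counted singly, 5.20% hold them. Windows run from 250 bases before to 50 after the start. Of genes with a window, 10.1% of 2-fold rises hold them in at least 1 window, as do 8.41% of 2-fold falls and 4.95% of all tested genes. Counted by gene in the same way, the Smad letters CAGACA or TGTCTG were in 25.3% of 2-fold rises, 19.5% of 2-fold falls and 18.2% of tested genes. For the Snail and Zeb letters CACCTG or CAGGTG the 3 shares were 23.7, 22.4 and 19.9%, and for the TEAD letters GGAATG or CATTCC they were 15.4, 18.7 and 14.4%. Of the 5 largest rises with a window, 3 held the Smad letters (Bpifc, Tnfaip6 and Adgra1), 1 the Snail and Zeb letters and 2 the TEAD letters. Both printed runs hold the Smad letters, left in lower case. These are counts of letters, with no test, and say nothing of binding.

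Of the 12 largest falls 3 were those of chemokines. Ccl20, a chemokine for lymphocytes and dendritic cells, went from 74.96 and 76.7 FPKM to 1.05 and 1.39, a change of −5.12 ± 0.240 (adjusted p = 2.94e-07). Cxcl5, a neutrophil chemokine, went from 112 and 113 to 2.62 and 2.26, and the related Cxcl1 from 42.3 and 42.9 to 2.91 and 3.17. Id2, which blocks basic helix-loop-helix factors and is repressed in the TGF-β cytostatic programme, went from 509 and 495 to 24.7 and 26.1, 19.8-fold lower. It was the most abundant transcript of the 12 largest falls. Alb, serum albumin, fell from 218 and 226 to 12.4 and 14.5 in KD cells and from 35.96 and 20.9 to 0.277 and 0.363 in control cells, so that its level was higher in the KD libraries at both times. The other falls were Akr1c19, Sorbs2, Mgat3, Sult1c2, Agt, Cyp2s1 and Gc, with changes of −3.86 to −3.21.

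Genes of the TGF-β pathway itself, feedback inhibitors included, moved in both directions. Among ligands, latency proteins and receptors 11 of 17 tested genes rose and 3 fell (shares of all genes, 23% and 44.8%), with a median change of 0.71 against −0.13 for all genes. Inhba, the activin A subunit, rose from 20.95 and 21.9 FPKM to 179 and 167, and the ligand Tgfb3 from 0.852 and 0.692 to 4.13 and 4.29. Of 17 Smad effectors and regulators 8 rose and 4 fell. The inhibitory Smad7 rose from 7.52 and 7.11 to 24.4 and 23.8 (1.59 ± 0.0790), and the Smad repressors Ski and Skil by 1.38 and 1.36. Nedd4l, a ubiquitin ligase for Smads, fell from 4.97 and 4.97 to 1.46 and 1.43. In the BMP and Id list of 14 genes 5 rose and 5 fell, and all 3 Id genes named here fell, Id2 by 4.25, Id3 from 65.6 and 63.8 to 11.7 and 12.2 FPKM and Id1 from 165 and 166 to 91.3 and 95.9. The ligands Gdf15 (−2.06) and Bmp4 (−1.50) were also lower.

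The transcription factors of EMT divided. Snai1, the Snail repressor of E-cadherin, went from 0.587 and 0.749 FPKM in untreated KD cells to 19.5 and 19.9 at 8 h (3.64 ± 0.0914, adjusted p = 1.13e-08), and from 0.889 and 1.25 to 23.3 and 21.9 in control cells. Zeb1, a further repressor of E-cadherin, rose from 4.97 and 5.56 to 10.1 and 10.4, and the chromatin protein Hmga2 by 1.15. Twist2 (−1.09) and Hmga1 (−0.95) fell, and Twist1 did not pass the filter. In all 7 of 15 rose and 3 fell (all genes, 23% rose and 44.8% fell). Cdh1, which encodes E-cadherin, fell from 127 and 121 to 83.1 and 84.1 in KD cells (−0.56 ± 0.104) and from 121 and 106 to 51.6 and 52.1 in control cells (−1.11), and the difference of 0.55 ± 0.148 did not pass the test (adjusted p = 0.0779). At 8 h the KD libraries lay above the control libraries for this gene.

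**Figure D2:**
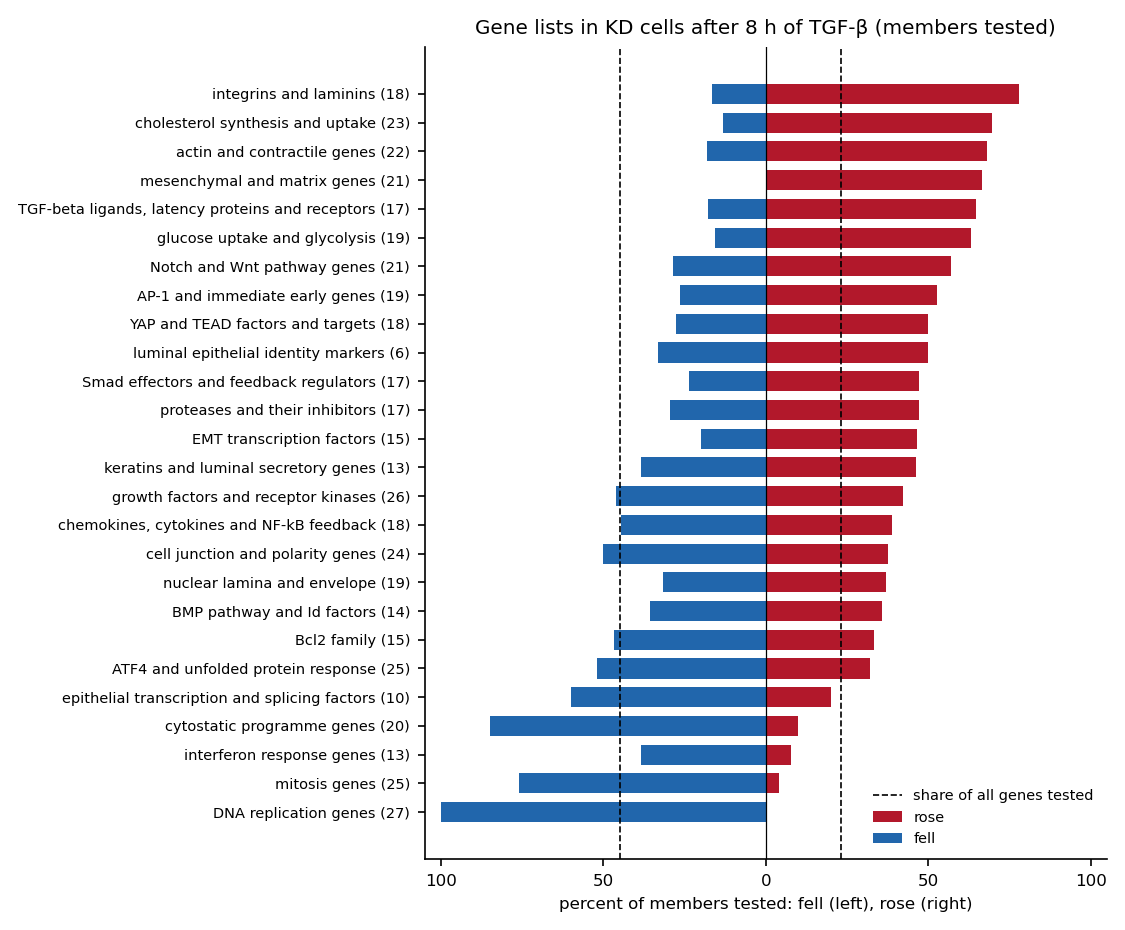
Percent of the tested members of each gene list with at least 6 tested genes (number tested in brackets) that rose (red, right) or fell (blue, left) in KD cells after 8 h of TGF-β, with dashed lines at the shares of all genes tested. Of the lists shown integrins and laminins have the highest share of rises (14 of 18), and in the DNA replication list 27 of 27 genes fell.

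More matrix, adhesion and actin genes rose than fell. Of 21 mesenchymal and matrix genes 14 rose and 0 fell, of 18 integrins and laminins 14 rose and 3 fell, and of 22 actin and contractile genes 15 rose and 4 fell (all genes, 23% rose and 44.8% fell). Itga5, the fibronectin receptor subunit, rose from 8.49 and 8.58 FPKM to 71.1 and 74.1. Lamb3, a chain of the basement membrane protein laminin-332, rose from 60.9 and 61.6 to 289.7 and 287. Col7a1, the anchoring fibril collagen, rose by 3.45, the fibrillar collagen gene Col5a1 by 2.70 and the cross-linking enzyme gene Lox by 2.03. Tenascin C (Tnc) went from 2.03 and 2.29 to 23.9 and 22.2. The classic markers moved less at this time, with Vim (vimentin) at 1185 and 1187 before and 1529 and 1763 at 8 h, and Cdh2 (N-cadherin) changing by 0.41. Fn1 (fibronectin) went from 45.02 and 46.2 to 84.2 and 73.8, a change of 0.78 ± 0.297 (adjusted p = 0.0434). Whether it was called depended on the setting. The limma fit of only the groups compared gave an adjusted p of 0.000416, and that without the filter on low values 0.0848. With any 1 of the 4 KD libraries left out the change was 0.68 to 0.87.

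Of 17 proteases and protease inhibitors 8 rose and 5 fell (all genes, 23% rose and 44.8% fell). Timp3 rose from 12.9 and 12.9 FPKM to 129 and 129 and Timp1 by 2.66, both inhibitors of metalloproteinases. The metalloproteinase gene Adam12 rose from 1.67 and 1.80 to 9.09 and 8.58. In the YAP and TEAD list 9 of 18 rose and 5 fell, with Ctgf (connective tissue growth factor) going from 148 and 157 to 494 and 519. Of the actin genes the LIM-domain proteins Zyx (1.42) and Pdlim7 (1.51) rose and Lima1 (−2.04) fell. Smooth muscle actin, Acta2, stayed under 1 FPKM in all these libraries, with a change of 0.67 ± 0.0996 in KD cells and 0.10 in control cells, and the difference did not pass the test (adjusted p = 0.0617).

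Epithelial genes moved in both directions. Of 24 tested junction and polarity genes 9 rose (37.5%, against 23% of all genes) and 12 fell (50%, against 44.8%), with a median of −0.12 close to that of all genes, and of 10 epithelial transcription and splicing factors 2 rose and 6 fell (median −0.46). Rbm47 (−2.20), an RNA-binding protein, and the transcription factors Ehf (−1.95) and Klf5 (−1.53) fell. The polarity gene Crb3 (−2.03) and the desmosomal gene Ppl (−2.31) fell, while the desmosomal gene Pkp1 (3.12) and the tight junction gene Cldn4 (2.31) rose. Keratins also went both ways. Krt19 fell from 1192 and 1109 FPKM to 178 and 218, Krt7 rose by 2.53, and the abundant Krt8 went from 2569 and 2614 to 3661 and 3663. Krt14, a basal cell keratin, rose from 1.71 and 1.55 to 23.8 and 29.6. In all 6 of 13 keratin and luminal genes rose and 5 fell. The medians of the junction and keratin lists change sign under median-ratio rescaling, where both are 0.01.

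Genes of DNA replication fell together, and further in KD than in control cells. All 27 genes of the list passed the filter and all 27 fell in both cell types (background, 44.8% in KD and 44.9% in control cells), 22 of them by at least 2-fold in KD cells. Their summed FPKM was 1527 and 1562 in untreated KD cells and 598 and 627 at 8 h, and 1512 and 1813 in untreated control cells and 966 and 948 at 8 h. The sums thus started at like levels and ended lower in both KD libraries than in both control libraries. The change ran from −2.22 to −0.69 in KD cells (median −1.31) and from −1.40 to −0.45 in control cells (median −0.76). Bulk RNA cannot tell fewer cells in S phase from less RNA per cell.

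Cdc6, which loads the helicase at origins, went from 11.01 and 11.6 FPKM to 1.63 and 1.65 in KD cells and from 9.44 and 12.4 to 3.46 and 3.47 in control cells, changes of −2.22 ± 0.110 and −1.40 ± 0.110. Mcm3, a subunit of that helicase, went from 74.6 and 74.5 to 20.3 and 20.3 in KD cells and from 70.3 and 88.04 to 41.5 and 39.4 in control cells. Mcm7, named after its values were seen, went from 111 and 113 to 36.5 and 38.7 and from 119.5 and 139 to 68.5 and 66.2. For the 3 genes the treated KD libraries lie below the treated control libraries. Uhrf1, which brings maintenance methylation to new DNA, went from 53.2 and 53.3 to 12.4 and 13.1 in KD cells and from 51.5 and 64.7 to 26.2 and 24.8 in control cells. Tk1, thymidine kinase, fell as well, with a change of −1.70 ± 0.121 in KD cells.

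The response of KD cells minus that of control cells was negative for all 27 replication genes (−0.88 to −0.06, median −0.55), where it was negative for 45.9% of all genes tested and had a median of 0.02. It was called for 15 of the 27 (55.6%, against 4.06% of all genes), all lower in KD cells, among them −0.88 for Mcm3 (adjusted p = 0.0219), −0.83 for Uhrf1 and −0.81 for Cdc6. Also called, and named after their values were seen, were Mcm2, Mcm4, Mcm5, Mcm7, Mcm10, Pcna, Cdc45, Cdt1, Rfc3, Fen1 and Chaf1a. The sign was steadier than the calls, but the 27 genes were measured in the same libraries and are not 27 independent observations. With any 1 library of the 4 groups left out, 26 or 27 of the differences stayed negative, while 8 were called without untreated control library 1, 25 without untreated control library 2, 1 without KD library 2 at 8 h, and 0 without any 1 of the other 5. Without the filter on low values 5 were called. The untreated control libraries differ more from each other (median gap 0.0979) than the other 3 groups do, and control library 2 has the higher replication sum.

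**Figure D3:**
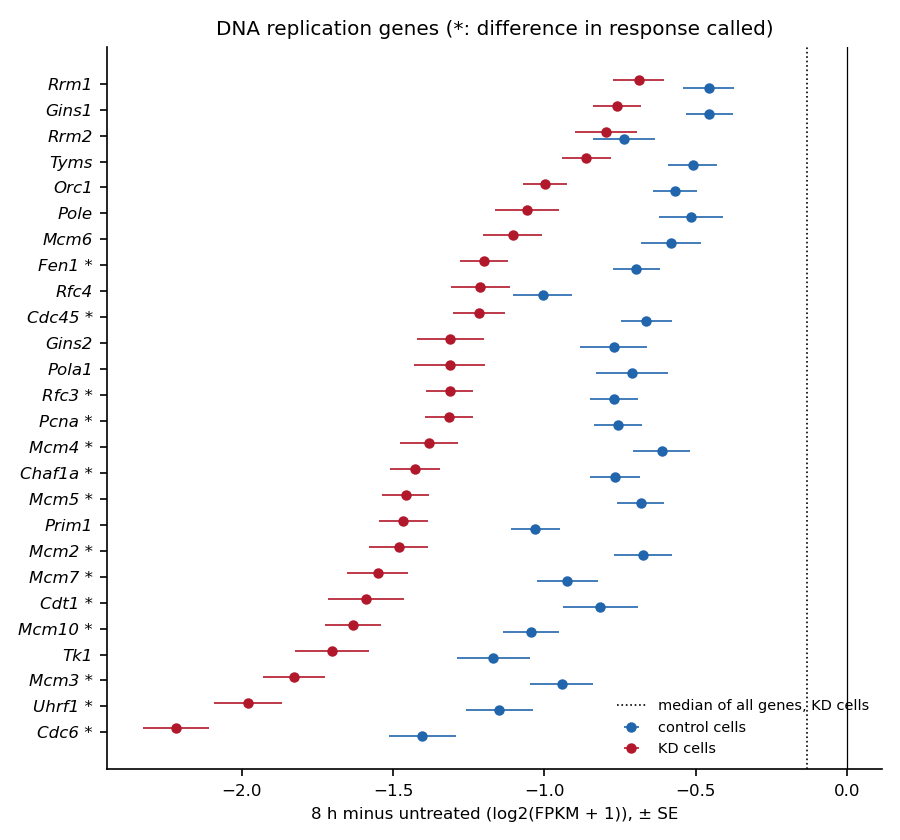
Change from untreated to 8 h (log2(FPKM + 1), ± SE of the fit) of 26 of the 27 DNA replication genes in KD (red) and control (blue) cells, with asterisks for genes whose difference in response was called and a dotted line at the median of all genes in KD cells. Every red point lies left of the blue point of its gene, and the median changes of the whole list are −1.31 and −0.76.

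Promoters of Mcm7, Cdc6 and Uhrf1 are printed because they show the E2F letters shared by replication genes, the site of the E2F factors that drive S phase transcription. Each is the 250 bases before the RefSeq start on GRCm38.p6, on the gene's strand, with TTCCCGC or its reverse complement GCGGGAA in capitals. The windows are chr5:138171884-138172133 for Mcm7 (minus strand, capitals from 165 bases before the start), chr11:98907901-98908150 for Cdc6 (plus strand, 138 bases before) and chr17:56303087-56303336 for Uhrf1 (plus strand, 48 bases before). Mcm7 and Uhrf1 have 2 windows each, of which the first is shown.
Mcm7: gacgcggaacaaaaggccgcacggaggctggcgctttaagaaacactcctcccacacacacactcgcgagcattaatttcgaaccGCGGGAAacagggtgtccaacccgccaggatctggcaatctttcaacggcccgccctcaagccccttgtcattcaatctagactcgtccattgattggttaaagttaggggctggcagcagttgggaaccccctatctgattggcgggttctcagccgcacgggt
Cdc6: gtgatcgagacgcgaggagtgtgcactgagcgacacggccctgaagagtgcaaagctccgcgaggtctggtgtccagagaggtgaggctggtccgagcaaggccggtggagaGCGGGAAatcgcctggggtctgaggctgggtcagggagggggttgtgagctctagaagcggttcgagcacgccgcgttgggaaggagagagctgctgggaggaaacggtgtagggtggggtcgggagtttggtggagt
Uhrf1: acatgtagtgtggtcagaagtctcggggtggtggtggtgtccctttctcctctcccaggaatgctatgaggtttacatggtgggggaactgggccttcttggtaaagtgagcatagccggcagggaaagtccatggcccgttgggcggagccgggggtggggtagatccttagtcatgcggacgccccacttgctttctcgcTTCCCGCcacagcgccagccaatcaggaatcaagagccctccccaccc
Windows were at hand for 22 of the 27 genes, and 11 of these genes (50%) hold these letters in at least 1 window. Among tested genes with a window the share was 10.2%. Of all windows, counted singly, 4.60% hold them. By gene the letters were in 15.7% of 2-fold falls and in 7.83% of 2-fold rises. A further E2F form, TTGGCGC or GCGCCAA, was in 6 of the 22 genes and in 5.32% of tested genes with a window.

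The cytostatic genes and the mitotic genes fell with them. Of 20 cytostatic programme genes 17 fell and 2 rose (all genes, 44.8% fell and 23% rose), with a median of −0.69. Ccne1, cyclin E1, which opens S phase, went from 18.2 and 18.1 FPKM to 3.46 and 3.80 in KD cells and from 11.6 and 13.3 to 5.85 and 6.46 in control cells. The changes were −2.05 ± 0.0747 and −0.91 ± 0.0747, and the difference of −1.14 ± 0.106 was called (adjusted p = 0.00267). The KD libraries started above the control libraries and ended below them. Ccnd2, cyclin D2, fell from 50.7 and 49.4 to 8.44 and 7.86 in KD cells and from 29.6 and 27.2 to 6.45 and 6.81 in control cells. Its KD libraries lay above the control libraries at both times. Ccne2 and E2f2 fell in KD cells with changes of −1.68 and −1.45. Cdkn2b, the inhibitor p15 that TGF-β is known to raise, rose from 25.8 and 26.8 to 47.6 and 48.1. Cdkn1a, the inhibitor p21, was at 176 and 172 before and 143 and 141 at 8 h, and Myc fell from 57.2 and 58.2 to 37.3 and 35.7. Of 25 mitosis genes 19 fell and 1 rose, with a median of −0.43 in KD cells and −0.26 in control cells. Their differences were negative for 20 of 25 and called for 0, where 4.06% of all genes were called. Top2a, topoisomerase IIα, fell from 99.4 and 99.3 to 49.2 and 52.3. Under median-ratio rescaling 13 of the mitosis genes and all 27 replication genes fell.

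Other signalling lists held single large changes. Of 19 AP-1 and immediate early genes 10 rose and 5 fell (all genes, 23% rose and 44.8% fell). Junb rose by 1.98 and Fos by 1.54, while Egr1 fell from 7.89 and 7.57 FPKM to 1.54 and 1.74. In control cells Egr1 went from 5.75 and 5.49 to 3.49 and 3.28, and the difference of −1.13 ± 0.162 was called (adjusted p = 0.0163). Dusp6, a phosphatase of the ERK kinases, fell from 33.1 and 32.96 to 12.9 and 13.7 in KD cells. In control cells it fell from 20.9 and 22.7 to 12.3 and 13.2. The difference of −0.53 thus comes with a higher untreated level in KD cells and like levels at 8 h. Of 21 Notch and Wnt genes 12 rose and 6 fell. Notch1, a receptor, fell from 15.04 and 13.9 to 1.55 and 1.27 as its ligand gene Jag1 rose by 2.41. Wnt9a, a Wnt ligand, rose from 0.474 and 0.574 to 11.8 and 11.1 in KD cells and from 0.235 and 0.222 to 4.76 and 5.08 in control cells. Of 26 growth factors and receptor kinases 11 rose and 12 fell (46.2%, near the share of all genes). Pdgfa rose from 9.79 and 9.81 to 66.9 and 64.8, Vegfa by 2.46 and Vegfc by 2.11.

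Metabolic and stress lists moved as follows. Of 23 genes of cholesterol synthesis and uptake 16 rose and 3 fell (all genes, 23% and 44.8%), with a median of 0.79 (0.55 in control cells). The feedback protein gene Insig1 rose from 10.9 and 10.8 FPKM to 40.1 and 37.4, and the synthesis gene Cyp51 by 1.68. Of 19 glycolysis genes 12 rose and 3 fell, with Pfkfb4 going from 0.683 and 0.611 to 14.3 and 13.6 and the glucose transporter Slc2a1 from 28.6 and 30.3 to 59.1 and 59.5. The falls of the next 4 lists were near the share of all genes (44.8%). Of 25 ATF4 and unfolded protein response genes 8 rose and 13 fell (52%), Ddit4 and Xbp1 rising by 2.35 and 1.47 and the serine synthesis gene Psat1 changing by −1.53. The Bcl2 family had 5 rises and 7 falls (46.7%) among 15, and its survival member Bcl2l1 fell from 68.5 and 68.6 to 24.8 and 25.2. Of 13 interferon response genes 1 rose and 5 fell (38.5%), and of 18 chemokine and NF-κB feedback genes 7 rose and 8 fell (44.4%). The medians of the Bcl2, interferon and chemokine lists lie within 0.2 of 0 and turn positive under at least 1 of quantile normalization and median-ratio rescaling.

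In the nuclear envelope itself the partner lamins moved in opposite directions. Lmna, which encodes the A-type lamins, rose from 327 and 336 FPKM to 477 and 514 (0.58 ± 0.0571). Lmnb2, the other B-type lamin, fell from 15.7 and 15.4 to 10.6 and 10.7. Lbr, the receptor that tethers heterochromatin to B-type lamins, fell from 30.6 and 31.3 to 13.8 and 14.5 (−1.08 ± 0.0663). Emd, emerin, was at 41.6 and 41.7 before and 34.9 and 35.03 at 8 h, a fall that lost its call under median-ratio rescaling. Of the 19 genes of the lamina and envelope 7 rose and 6 fell (all genes, 23% and 44.8%). A difference in response between KD and control cells was called for 0 of 19. As only 4.06% of all genes had such a call, this does not set the list apart. For Lmnb2 the difference was −0.30 ± 0.0814 and did not pass the test (adjusted p = 0.0799).

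Control cells were compared in libraries whose values do not enter the KD change. Both comparisons take the spread of a gene from the same fit of all 12 libraries, so their calls are not independent. In control cells 2223 genes (19.4%) rose and 5137 (44.9%) fell, 64.3% in either direction. Of the 548 genes that rose by at least 2-fold in KD cells 532 (97.1%) also rose in control cells, and of the 672 that fell by 2-fold 668 (99.4%) also fell. The remaining 16 and 4 were not called in control cells, and 0 moved the other way. Over all calls the overlap was smaller. Of 2629 rises 1973 (75.05%) also rose in control cells, 636 were not called and 20 fell, and of 5132 falls 4428 (86.3%) also fell, 701 were not called and 3 rose. Snai1 changed by 3.64 in KD and 3.52 in control cells, with a difference of 0.12 ± 0.129.

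The difference between both responses was called for 465 genes, 281 (2.45%) higher and 184 (1.61%) lower in KD cells, of which 16 and 14 passed 2-fold. These counts moved widely when 1 library was left out, which leaves its group with 1 library. The cause was not tested. Without untreated control library 2 there were 887 and 598, without untreated control library 1 190 and 143, and without any 1 of the other 6 libraries 21 to 38 and 8 to 19. Of 28 named genes with a called difference, 5 (Apoa1, Ccne1, Lamb3, Prg4 and Wnt9a) kept the call in every fit that left out 1 library of the 4 groups.

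**Figure D4:**
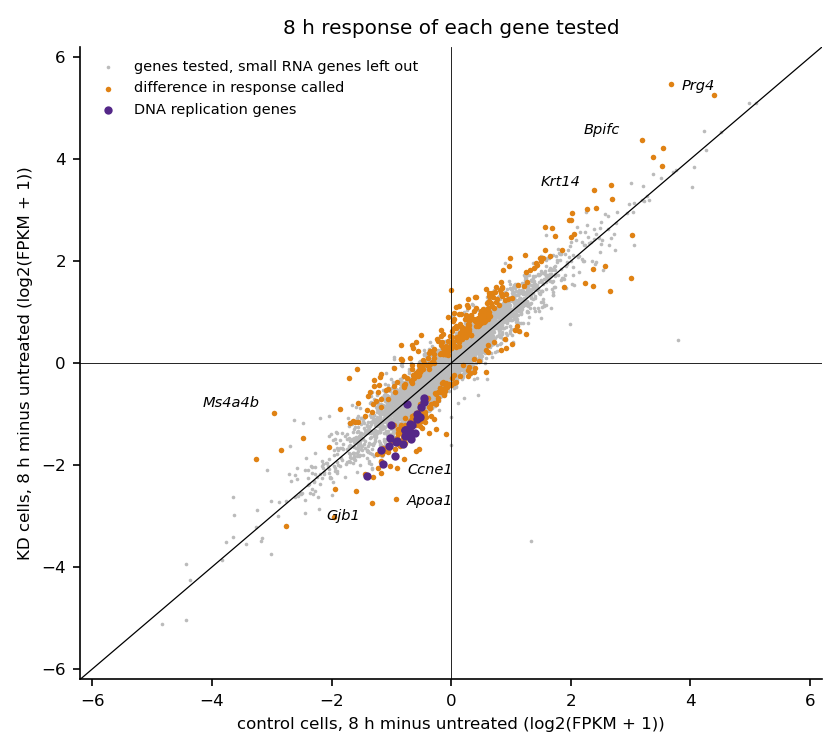
Change from untreated to 8 h (log2(FPKM + 1)) in control cells (x) and KD cells (y) for 11338 genes, with genes named as small RNAs left out, called differences in orange and DNA replication genes in violet. Most genes lie near the diagonal of equal change, Prg4 lies above it (5.47 against 3.67) and Ccne1 below it (−2.05 against −0.91).

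Prg4 had the largest of those 5 differences. It stood at 56.9 and 55.7 FPKM in KD cells and 15.3 and 13.1 in control cells at 8 h, from under 1 FPKM in both, and the difference in response was 1.80 ± 0.101 (adjusted p = 0.000118). Lamb3 rose from 60.9 and 61.6 to 289.7 and 287 in KD cells and from 77.96 and 83.2 to 244 and 239.8 in control cells, a difference of 0.64 ± 0.0572 (adjusted p = 0.00237). Both genes ended higher in the KD libraries, with no overlap. For Wnt9a the difference was 0.76 ± 0.0931 (adjusted p = 0.0085). Apoa1, apolipoprotein A-I, fell from 10.2 and 10.8 to 0.796 and 0.819 in KD cells, while control cells held only 0.991 and 0.879 before and 0.0186 and 0.0203 at 8 h. Its difference of −1.74 ± 0.0810 (adjusted p = 3.11e-05) thus comes with a starting level far higher in KD cells, and on a scale with 1 added a gene that starts near 0 can fall little.

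Some called differences come with unequal untreated levels, others with unequal levels at 8 h. Krt14 reached 23.8 and 29.6 FPKM in KD cells and 27.3 and 27.3 in control cells at 8 h, which overlap, from 1.71 and 1.55 and 4.65 and 4.14. Itgb7 went from 8.58 and 9.37 to 7.04 and 7.25 in KD cells and from 27.96 and 40.8 to 10.3 and 9.14 in control cells. Ms4a4b went from 8.42 and 8.00 to 4.16 and 3.20 and from 24.5 and 12.6 to 1.49 and 1.27. The untreated control libraries of both genes lie above the untreated KD libraries and apart from each other. By contrast Ass1, Bpifc and Tnfaip6 started at like low levels and ended higher in KD cells. Ass1 reached 91.8 and 98.02 against 52.8 and 53.4, Bpifc 20.1 and 20.3 against 8.45 and 8.10, and Tnfaip6 16.9 and 17.1 against 10.6 and 10.2, with differences of 0.85, 1.19 and 0.67. None of these 6 kept its call in every fit that left out a library.

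Integrins and laminins were the list with the most called differences toward a larger rise, 6 of 18 (33.3%, against 2.45% of all genes higher in KD cells). Without 1 library of the 4 groups the count was 1 to 3 for any KD library or treated control library, 6 without untreated control library 1 and 7 without untreated control library 2. They were Lamb3, Itgb3 and, named after their values were seen, Itga1, Itgb4, Itgb6 and Lama3. Lama3 encodes the partner chain of Lamb3 in laminin-332, and Itgb4 a subunit of its receptor in hemidesmosomes. At 8 h Lama3 lay near the filter limit of 1 FPKM in KD cells and below it in control cells. Lama3 went from 0.0454 and 0.0252 FPKM to 1.25 and 1.14 in KD cells and from 0.0240 and 0.00924 to 0.406 and 0.318 in control cells, a difference of 0.66 ± 0.0854. Itgb4 went from 39.7 and 39.5 to 78.5 and 82.2 and from 35.5 and 36.6 to 57.6 and 54.5 (0.38 ± 0.0677). Itgb3, a vitronectin receptor subunit, went from 7.69 and 7.66 to 25.4 and 25.2 and from 6.75 and 6.82 to 18.2 and 17.1 (0.34 ± 0.0601).

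By 24 h of TGF-β part of the 8 h response had turned back. This comparison shares the 8 h KD libraries with that at 8 h, so the 2 are only set side by side. Between 8 and 24 h 3209 genes (28%) rose and 2724 (23.8%) fell in KD cells, 51.8% in either direction. Of the 548 genes with a 2-fold rise at 8 h, 173 rose further, 214 fell and 161 were not called. Of the 672 with a 2-fold fall, 262 fell further, 137 rose and 273 were not called. Prg4 went from 56.9 and 55.7 FPKM at 8 h to 21.6 and 20.8 at 24 h, Krt14 from 23.8 and 29.6 to 2.84 and 1.99 and Insig1 from 40.1 and 37.4 to 14.2 and 18.6. These 3 were high at 8 h and lower at 24 h in both KD libraries.

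Most matrix genes, in contrast, were higher still at 24 h. Of the 21 mesenchymal and matrix genes 17 were higher and 2 lower at 24 h than at 8 h (all genes, 28% and 23.8%). Il11 went from 29.05 and 29.3 FPKM to 137 and 121, Thbs1 from 178 and 171 to 482 and 533 and Fn1 from 84.2 and 73.8 to 415 and 942. The 24 h KD libraries differ more from each other (median gap 0.116), as Tnc with 88.4 and 235 shows. Of the 25 mitosis genes all 25 were lower at 24 h than at 8 h (median −2.09), and Top2a went from 49.2 and 52.3 to 12.3 and 13.5. Of the replication genes 22 of 27 were lower still and 0 higher. Of the cholesterol genes 13 of 23 were lower and 2 higher.

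**Figure D5:**
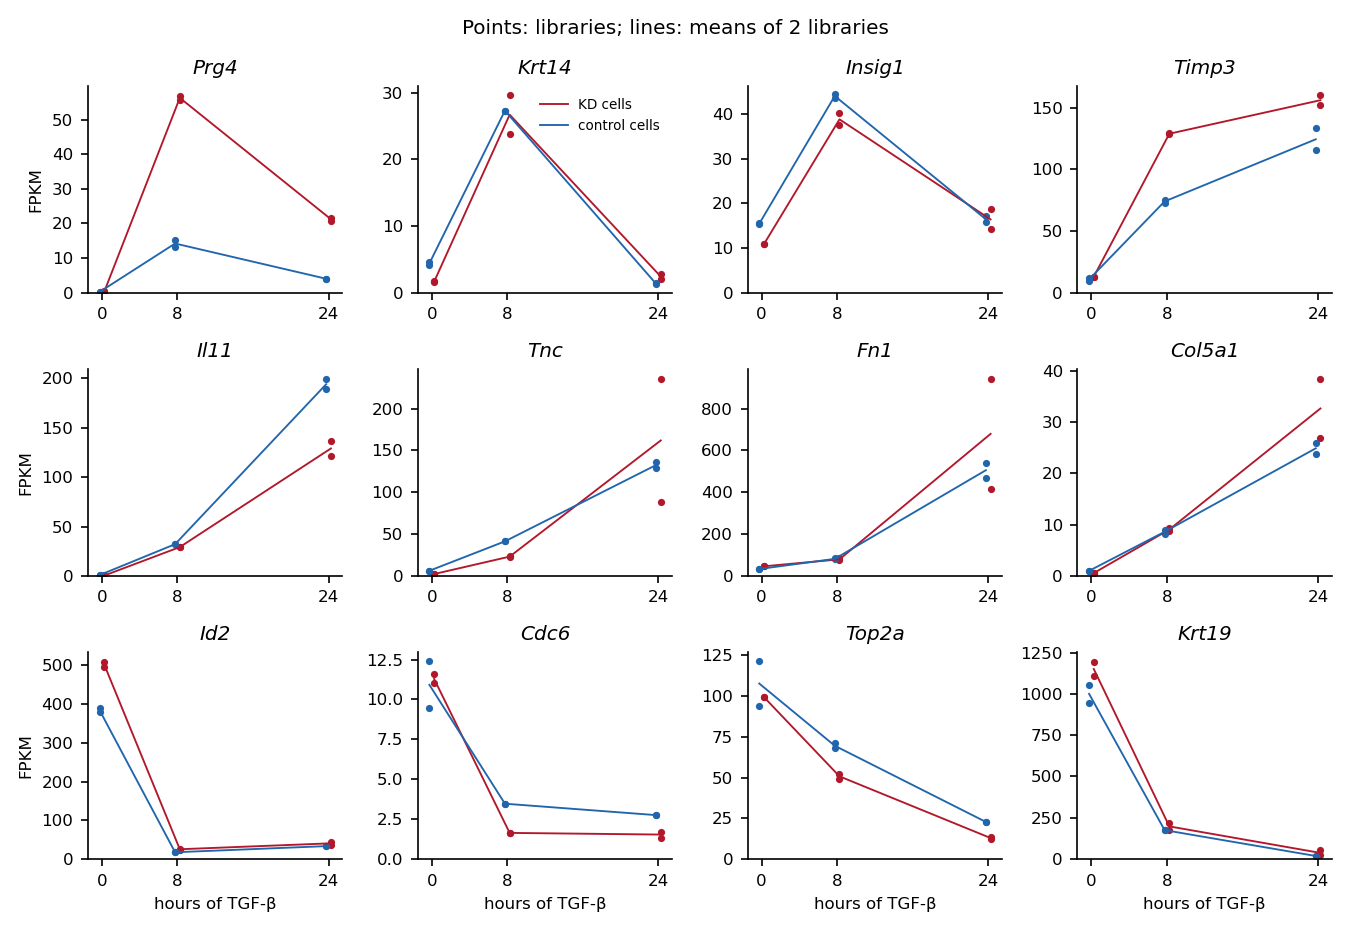
FPKM at 0, 8 and 24 h of TGF-β for 12 genes in KD (red) and control (blue) cells, with points for libraries and lines through the means of 2 libraries. Prg4, Krt14 and Insig1 peak at 8 h, Il11, Tnc, Fn1 and Col5a1 are highest at 24 h, and Id2, Cdc6, Top2a and Krt19 are lower at 8 h than before.

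Lamin B1 occupancy, mapped in parental cells without shRNA and with 1 library per time, was set beside the KD response for 11209 genes with a place on mm9. A gene counted as occupied with a peak between 2500 bp upstream of its start and its end. In cells treated for 8 h 60.2% of the genes that rose had a lamin B1 peak (95% Wilson interval 58.3 to 62.1, which covers counting error only), as did 55.0% of those that fell and 55.6% of those not called. In untreated cells the shares were 36.0, 33.4 and 31.6%. Of all tested genes with a place, 56.4% had a peak at 8 h and 33.4% in untreated cells. Among 2-fold genes the shares at 8 h were 55.9% for rises and 49.4% for falls. Genes that rose are longer (median 26.4 kb, against 20.7 kb for those that fell and 22.9 kb for those not called). Their median FPKM in KD cells was 18.4 at 8 h, against 9.91 and 11.5, and 11.3 before treatment, against 15.3 and 11.5. The part of gene length and of expression in these shares was not tested. An ATAC peak within 500 bp of the start was found in untreated cells for 51.5% of the genes that rose, 57.3% of those that fell and 58.7% of those not called.

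Few of the replication genes held a lamin B1 peak at 8 h. A lamin B1 peak was found at 7 of the 27 in untreated cells and at 6 at 8 h (33.4 and 56.4% of all genes). Promoter ATAC peaks were counted for 22 of these 27 genes in untreated cells and for 14 at 8 h. The ATAC share of all genes was also lower at 8 h, 46.1% against 56.4% in untreated cells. Ccne1 (chr7:38883003-38892553 on mm9, minus strand) held a lamin B1 peak over its promoter at both times, at 8 h at chr7:38891675-38893388. Snai1 (chr2:167363695-167368314, plus strand) held 2 lamin B1 peaks in untreated cells and 0 at 8 h. Prg4 (chr1:152296542-152313295, minus strand) held 0 peaks of either kind at both times.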

How the data were processed

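RNA-seq values of 12 libraries of control and KD cells, 2 in each of 6 groups, were used as deposited. The authors aligned the reads and summarised them as FPKM per gene, and the submitters' processing notes name Bowtie, TopHat, Cufflinks and mm9, with versions not given in the sources used here. The table lacks a header, and columns follow the order of libraries that its own title and the sample descriptions give, with 0 columns left without a sample. FPKM holds no counts, so the depth is unknown in reads. The low values step in units that put the libraries at 89.5 to 126.6% of the depth of the first untreated KD library. Lamin B1 and ATAC peak lists of untreated and 8 h parental cells were deposited by the authors as MACS peaks on mm9 with a score per peak, 1 library each. FPKM of parental cells, peak lists at 24 h and Hi-C were not used here.

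Of 24247 genes, 11450 reached 1 FPKM in 2 or more libraries and were tested on log2(FPKM + 1) with limma 3.58.1 (R 4.3.3), with moderated variances that follow a trend with the mean. All 12 libraries entered 1 fit, and p-values were adjusted after Benjamini and Hochberg over all genes tested, with a threshold of 0.05. These p-values measure the spread between 2 libraries a group. The fit was tested on simulated data made from the deposited values, with known changes added. Peaks and figures were handled in Python 3.11.15 with pandas 2.3.3 and numpy 2.4.6. Genes were placed with a GENCODE annotation on mm9, 10566 by symbol and 643 by an older symbol, and overlaps of at least 1 bp counted. Promoter windows came from RefSeq on GRCm38.p6.

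The comparison, the 30 gene lists (612 genes), the tests and the named genes were chosen with earlier results of these data known, and support nothing beyond these values. Named were 5 lamina genes, the 12 largest rises and 12 largest falls among called genes with a group mean of at least 5 FPKM and no overlap between groups, up to 4 called members of each list with the largest change together with well-known EMT genes, and the 6 largest called differences in each direction. Names of small RNAs and provisional gene names were left out, and some genes of these sets are not reported here, though they count in the totals. The E2F letters and 2 alternatives (no small RNA genes, change relative to the median gene) were added after seeing the data. The other alternatives were quantile normalization, median-ratio rescaling, a constant of 0.1 in place of 1, no filter and the replicate number as a block. Further ones were separate fits of the groups in a comparison, no trend, a 2-fold minimum and 3 other rules for peaks. Each library except those of control cells at 24 h was also left out in turn.

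Replicates were compared first. The correlation of the 2 libraries of a group over the genes tested was 0.960 to 0.983, and no pair was identical.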

Additional observations from a re-analysis of the deposited data

Results flagged for a closer look

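The results listed here are tests of the difference between both cell types, the response of KD cells at 8 h minus that of control cells (log2(FPKM + 1), limma, adjusted p under 0.05). Genes are members of the named set or called members of the DNA replication and the integrin and laminin lists.

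Among secreted, matrix and adhesion genes the difference was 1.80 for Prg4, 1.19 for Bpifc, 0.67 for Tnfaip6, 0.34 for Thbs1, 0.54 for Timp3, −0.52 for Adam12, 0.64 for Lamb3, 0.66 for Lama3, 0.34 for Itgb3, 0.38 for Itgb4, 0.61 for Itgb6, 0.99 for Itga1 and 1.41 for Itgb7. Adam12 was the 1 gene of these with a smaller rise in KD cells.

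Among signalling and metabolic genes it was 0.85 for Ass1, 0.76 for Wnt9a, −1.13 for Egr1, −0.53 for Dusp6, −0.47 for Ifit2, 1.99 for Ms4a4b, 1.38 for Sepp1, −1.74 for Apoa1 and −1.42 for Gjb1. Among keratins and genes of the cornified envelope it was 1.00 for Krt14, 1.20 for Krt6a, −1.35 for Lce1g and −1.24 for Lce1a2.

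Among cell cycle genes it was −1.14 for Ccne1 and −0.54 for Ccnd2, and in the replication list −0.81 for Cdc6, −0.83 for Uhrf1, −0.88 for Mcm3, −0.81 for Mcm2, −0.77 for Mcm4, −0.78 for Mcm5, −0.63 for Mcm7, −0.59 for Mcm10, −0.56 for Pcna, −0.55 for Cdc45, −0.77 for Cdt1, −0.54 for Rfc3, −0.50 for Fen1 and −0.66 for Chaf1a. All of these cell cycle genes fell in both cell types. Ccnd2 lay higher in KD than in control cells both before treatment and at 8 h.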

How the results depend on the processing

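A 2-fold minimum left 548 of the rises and 672 of the falls of KD cells, 438 and 544 in control cells, 16 and 14 of the differences, and 234 and 329 of the changes from 8 to 24 h. Under median-ratio rescaling 3417 genes fell in control cells. A fit of only the groups compared called 443 differences as higher, and 2042 rises and 1659 falls from 8 to 24 h. Leaving out each library in turn gave 21 to 887 differences higher and 8 to 598 lower in KD cells. Whether the replicate numbers of the labels pair the samples cannot be told from these values. Deviations of same-numbered libraries correlated by −0.135 to 0.368 between groups (0.0492 between untreated and treated KD cells), which does not exclude pairing. With the replicate number as a block the differences fell to 166 higher and 118 lower, and 23 of 28 named differences kept their call. The block changed no other count by over 1.5 times, with 2624 and 5093 in KD cells, 2207 and 5099 in control cells, and 3147 and 2703 from 8 to 24 h. The cause of these shifts was not tested, beyond the smaller sets of libraries or genes that the settings use. Lmnb1 stayed called in KD against control cells under all settings run, and no called change of a named gene or named difference changed sign. The medians of 5 lists near 0 changed sign under a rescaling.

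Peak shares moved with the rule. With a peak within 2500 bp of the start, at or above the median score, and among 2-fold genes, the lamin B1 share in untreated cells was 31.0, 21 and 31.7% for rises and 28.9, 19.1 and 31.2% for falls. At 8 h it was 52.7, 38.7 and 55.9% for rises and 49.2, 33.8 and 49.4% for falls. The ATAC share in untreated cells was 54.3, 32.3 and 31.8% for rises and 60.0, 36.6 and 46.4% for falls, and at 8 h 45, 25.2 and 27.7% and 49.0, 27.9 and 37.1%. Genes not called had, under the first 2 rules, lamin B1 shares of 28.0 and 17.6% in untreated cells and 48.9 and 36.1% at 8 h, and ATAC shares of 61.0 and 38.1% and of 51.1 and 30.5%.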
